A study of Mus musculus with 6 samples.

Results

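AP-1 and immediate-early transcription factors were followed in primary mouse hepatocytes exposed to interleukin-1β (IL-1β). The 10 genes, Jun, Junb, Jund, Fos, Fosb, Fosl1, Fosl2, Atf3, Egr1 and Maff, were chosen by name, as the Jun and Fos families and 3 further factors induced early by stimuli, out of 23282 genes in the deposited table. The cells came from livers of C57BL/6N mice, which were perfused with collagenase, and they attached for 3 h before the medium was changed. Control cultures received no treatment (n = 3), and the other cultures received recombinant IL-1β protein for 24 h (n = 3), at a dose that the labels do not give. The sample labels give this time for the IL-1β cultures only. Any difference between the groups in time in culture cannot be told apart from IL-1β here. RNA was read by QuantSeq, which sequences a short fragment next to the poly(A) tail of each mRNA. Although the design text counts 2 samples in each group, it names 3, and it does not say whether the samples of a group came from separate animals, so p-values measure only the spread between these samples.

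AP-1 is a dimer of basic leucine zipper (bZIP) proteins, in which a Jun protein pairs with another Jun, a Fos or an ATF protein and binds the TRE or the related CRE element. IL-1β binds its receptor on hepatocytes, and the kinases JNK and p38 and the factor NF-κB are the best known carriers of its signal. Many AP-1 genes are immediate-early genes, whose transcripts appear within minutes of a stimulus and are rapidly degraded. Egr1 is a zinc finger factor of the same early response, and Maff is a small MAF protein, a bZIP factor that has no activation domain of its own.

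Of the 10 genes, 9 had enough reads for a test, and 5 of these were higher after IL-1β and 0 lower at an adjusted p below 0.05 (quasi-likelihood test of edgeR, adjusted by Benjamini-Hochberg across 11657 genes). Across all genes tested, 13.4% passed in either direction, 6.97% higher and 6.44% lower. The 5 genes were Atf3, Fosl2, Junb, Maff and Egr1, in the order of their log2 fold changes from 0.79 to 0.23. The median log2 fold change of the 9 genes was 0.32, beside -0.002 for all genes tested. In 6 of the 9 genes the control and IL-1β samples did not overlap, 5 higher and Fosl1 lower, where 28.2% of all genes tested were separate in this way. An exact permutation test of 3 samples against 3 gave each of these 6 a two-sided p of 0.1, the smallest it can give. The 10 genes and the lists below were chosen with earlier results of these data known, so their counts are description and no test of a set.

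The sequences just upstream of 4 of these genes are shown first, since they let the factors that rose be set beside Jun, which did not pass the test. Promoter windows from RefSeq on GRCm38.p6, reaching from 250 bases before to 50 bases after a start site, were used for 8 of the 10 genes, with 3 windows for Maff. Only the 250 bases before the start site are printed, 5′ to 3′ on the gene's own strand. The motifs searched on both strands were the TRE (TGANTCA), the CRE (TGACGTCA), the EGR site (GCGNGGGCG), the CArG box bound by SRF and the NF-κB site. Variants of the CRE (TGACNTCA and TNACGTCA) were added after the windows had been read, and a full CRE is a match to both. Capitals mark every match.
Atf3 (chr1:191183334-191183583, minus strand): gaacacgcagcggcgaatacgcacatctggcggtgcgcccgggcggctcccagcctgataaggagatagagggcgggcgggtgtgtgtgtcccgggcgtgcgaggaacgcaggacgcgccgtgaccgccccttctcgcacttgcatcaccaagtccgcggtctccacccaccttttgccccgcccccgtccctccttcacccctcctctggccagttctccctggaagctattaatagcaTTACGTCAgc
Fosl2 (chr5:32136222-32136471, plus strand): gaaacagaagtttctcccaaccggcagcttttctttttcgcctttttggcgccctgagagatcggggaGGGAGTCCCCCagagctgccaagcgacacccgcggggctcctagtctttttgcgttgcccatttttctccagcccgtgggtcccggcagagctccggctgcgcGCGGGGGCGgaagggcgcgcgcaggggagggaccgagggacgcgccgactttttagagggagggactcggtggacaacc
Maff, second window (chr15:79347270-79347519, plus strand): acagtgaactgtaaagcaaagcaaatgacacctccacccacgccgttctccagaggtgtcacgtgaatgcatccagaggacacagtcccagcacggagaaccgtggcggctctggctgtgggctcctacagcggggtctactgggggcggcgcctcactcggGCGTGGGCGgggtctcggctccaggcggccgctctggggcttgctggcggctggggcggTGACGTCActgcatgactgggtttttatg
Jun (chr4:95052223-95052472, minus strand): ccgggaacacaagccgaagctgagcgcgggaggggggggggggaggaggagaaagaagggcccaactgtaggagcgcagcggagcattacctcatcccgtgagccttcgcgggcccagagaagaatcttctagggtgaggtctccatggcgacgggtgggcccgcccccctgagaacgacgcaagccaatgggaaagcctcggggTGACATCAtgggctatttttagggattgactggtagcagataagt

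The Atf3 window held the CRE variant TTACGTCA from -10 to -3, counted from the start site. The second Maff window held a full CRE from -29 to -22 and an EGR site from -88 to -80. The Fosl2 window held an EGR site from -79 to -71 and a pair of overlapping NF-κB matches between -182 and -172. Jun held the CRE variant TGACATCA from -45 to -38, and the same letters stood at the same distance in the third Maff window, which also held an NF-κB match from -70 to -61.

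No window of the 8 genes held a TRE or a CArG box, and none of the motifs was found for Junb or Jund. Sequence outside the windows was not searched, and Fosl1 and Egr1 are not among the 8 genes. RefSeq's Jund window begins from a start at 70697739, while GENCODE starts Jund at 70698949. GENCODE also starts Atf3 and Fosl2 further upstream, at 191218039 and 32135801, which the windows of these 2 genes do not reach. Fos held an NF-κB match from -214 to -205, and Fosb held one from -188 to -179 and an EGR site from -50 to -42. Among 32851 windows of the same length, 7.81% held a TRE, 1.79% a CRE, 8.83% TGACNTCA, 2.93% TNACGTCA, 5.55% an EGR site, 1.63% a CArG box and 8.46% an NF-κB site. A match here describes letters and not a bound site, and genes that rose and genes that did not both held matches.

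The libraries held 9538741 to 11105408 counts, of which the ribosomal precursor Rn45s took 11.7 to 14.2%. Levels are given as CPM, counts relative to library size with TMM scaling factors, and 3 counts correspond to 0.269 to 0.321 CPM, a limit that covers counting error only. QuantSeq reads each transcript once at its end, so CPM was not divided by length. The hepatocyte label was met by albumin, at 16200.3 ± 516 CPM in control cells (SD, n = 3), although Cps1, an enzyme of the urea cycle, was at 2.65 ± 0.765 CPM and Ass1 and Pck1 were below that. Summed markers of hepatocytes ranged from 20648 to 20852 CPM in controls and from 17064 to 17955 CPM after IL-1β. Of 8 tested, 7 were lower in edgeR, where 6.44% of all genes tested were. In such bulk samples, fewer cells of a type and less RNA per cell cannot be told apart.

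Several factors here are also made by Kupffer, endothelial and other liver cells, so the markers of those cells were read in the same samples. Macrophage markers summed to 248 to 280 CPM in controls and 254 to 287 CPM after IL-1β. Most of this was Cd68, at 192 ± 17.4 CPM and 184 ± 12.3 CPM. Clec4f, Vsig4 and Adgre1 of the same list, named after their values were seen, were at 1.17, 0.295 and 0.856 CPM in controls. The sum therefore says little about them. In edgeR 0 of the 11 macrophage markers tested were called, where 13.4% of all genes tested were. Their median log2 fold change was 0.31, with 8 of the 11 above 0. Stellate cell markers summed to 41.2 to 44.7 and 43.2 to 47.8 CPM, with 0 of 4 called and a median log2 fold change of 0.33. Endothelial markers summed to 76.3 to 82.9 and 75.5 to 79.5 CPM, with a median log2 fold change of -0.56. Of 8 endothelial markers tested, 1 was higher and 2 lower, where 6.97% and 6.44% of all genes tested were. Lyve1 rose from 18.8 ± 2.85 CPM to 25.8 ± 2.22 CPM. Clec4g fell from 5.80 ± 1.32 CPM to 0.765 ± 0.497 CPM, and Kdr from 4.55 ± 0.694 CPM to 1.62 ± 0.354 CPM. These genes were named after their values were seen, and the sum hides their opposite moves. Cholangiocyte markers summed to 320 to 335 and 242 to 244 CPM, carried by Spp1 and Sox9, while Krt19, Krt7, Epcam and Cftr stayed below 1 CPM. Neutrophil markers went from at most 0.448 to between 2.57 and 5.30 CPM through S100a8, with Elane, Mpo, Retnlg and S100a9 at 0 in all samples. The part of these markers, those of hepatocytes included, in the results below was not tested.

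In control hepatocytes the factors spanned a wide range of levels. Jund led at 244 ± 24.6 CPM, followed by Jun, Egr1 and Junb, and all 4 were above at least 90.2% of the genes tested. Maff, Fosl1, Fosl2 and Atf3 lay between 64.4 and 23.4 CPM. Fos, at 2.04 ± 0.597 CPM, and Fosb, at 0.746 ± 0.368 CPM, were lowest. No neighbours in this order of 10 overlapped between their 3 control samples. After IL-1β, Junb and Egr1 stood above Jun, and Fosl2 stood above Fosl1 in the order of means. Junb and Egr1 overlapped with each other there, and so did Fosl2 and Fosl1. This order compares different genes through counts at their 3′ ends, and how fully each end was counted was not tested. GENCODE places the 3′ end of Junb 2425 bases past the deposited one.

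**Figure D1:**
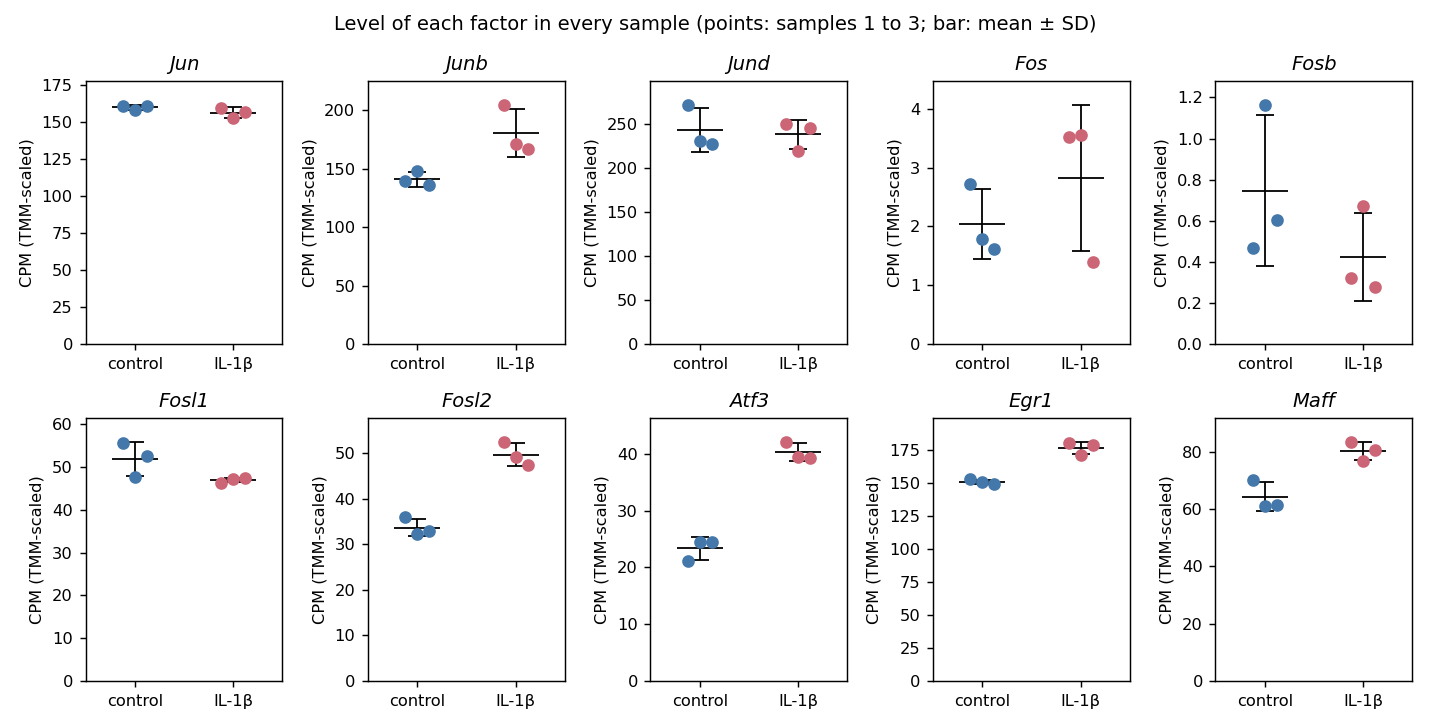
Level of each of the 10 factors (CPM after TMM scaling, linear axes from 0) in the 3 control and 3 IL-1β samples, with horizontal lines for the mean and bars for the SD. Samples of Atf3, Fosl2, Junb, Maff and Egr1 lay higher after IL-1β without overlap, while Jun, Jund, Fos and Fosb overlapped.

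Among the Jun family, Junb alone passed the test. Jun (c-Jun, chr4:95049036-95052222, minus strand on GRCm38), the prototype partner of Fos, was at 161, 158 and 161 CPM in the control samples and at 159, 153 and 157 CPM after IL-1β. The groups overlapped, the log2 fold change was -0.033 (standard error 0.0682), and edgeR's adjusted p was 0.841. The 95% interval of the fold ran from 0.886 to 1.08. The control samples of Jun differed by only 0.975% (coefficient of variation), below the counting error of 2.43%.

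Junb (chr8:84976909-84978748, minus strand), a Jun protein that activates less strongly than c-Jun and can oppose it, was at 139.6, 148 and 136 CPM in controls. The IL-1β samples were at 205, 171 and 167 CPM, with sample 1 well above the others and all 3 above every control. The mean rose from 141 ± 6.41 CPM to 181 ± 20.7 CPM (SD, n = 3), or by 28.2%. The log2 fold change was 0.36 (95% interval 0.19 to 0.52, adjusted p = 0.00245 from edgeR). GENCODE extends Junb by 2425 bases past the 3′ end that the table gives, where the other members differ by at most 28 bases.

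Jund (chr8:70697739-70700616, plus strand), the Jun protein usually present in resting cells, was at 272, 231 and 228 CPM in controls and 250.5, 219.6 and 246 CPM after IL-1β. The first control sample was the highest of all 6, and the groups overlapped. Its log2 fold change was -0.031 (95% interval -0.19 to 0.13, adjusted p = 0.873 from edgeR), and the sign turned when control sample 1 or IL-1β sample 2 was left out, to 0.055 and 0.029.

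The summed Jun family moved from 545 ± 24.8 CPM to 576 ± 35.9 CPM (SD, n = 3), with overlapping samples. Within that sum Junb took a larger share in every IL-1β sample, from 25.95% ± 1.603 to 31.4% ± 2.02 of the family's counts (SD, n = 3). Jun's share went from 29.4% ± 1.28 to 27.2% ± 1.11, and Jund's from 44.7% ± 2.49 to 41.4% ± 1.496, with overlap. Jun's share was lower in every IL-1β sample by a narrow gap, at most 28.06% against at least 28.105% in controls. A share also falls when that of another member rises, and Jun's own CPM overlapped between the groups. In each control sample there were fewer Junb than Jun counts, with ratios of 0.867, 0.938 and 0.845. In each IL-1β sample there were more, with ratios of 1.28, 1.12 and 1.06. These shares and ratios compare libraries through the 3′ end of each transcript, and no test was made on them. For Junb the deposited end is short of that in GENCODE.

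The Fos family held most of its transcripts in Fosl1 and Fosl2, and little in Fos and Fosb. Fos (c-Fos, chr12:85473901-85477270, plus strand), the prototype immediate-early gene, had 29, 20 and 16 reads in controls and 33, 37 and 15 after IL-1β. These equal 2.72, 1.79 and 1.61 CPM against 3.53, 3.55 and 1.39 CPM, with IL-1β sample 3 below every control and the other two above. The log2 fold change was 0.46 (95% interval -0.41 to 1.32, adjusted p = 0.582 from edgeR), and the fold interval from 0.755 to 2.496 allows both a decrease and a large increase. The coefficient of variation was 29.3% in controls and 43.9% after IL-1β, where counting alone gives 21.5% and 18.8%.

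Fosb (chr7:19302696-19310045, minus strand), a close relative of Fos, had 5, 13 and 6 reads in controls and 3, 7 and 3 after IL-1β. It stayed below the count filter, and with every gene kept, edgeR gave a log2 fold change of -0.80 (adjusted p = 0.724) and DESeq2 one of -0.82 (adjusted p = 0.766). A difference was not detectable at this depth.

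Fosl1 (FRA-1, chr19:5447698-5455938, plus strand), a Fos protein without the C-terminal activation domain of c-Fos, was at 55.6, 47.6 and 52.6 CPM in controls. After IL-1β it was at 46.4, 47.3 and 47.4 CPM, a narrow range just below the lowest control. The log2 fold change was -0.14 (95% interval -0.34 to 0.055), and the adjusted p of 0.409 from edgeR did not pass. The last 500 bases of Fosl1 are overlapped on the opposite strand by Ccdc85b (chr19:5453180-5457894), whose reads cannot be told apart from those of Fosl1 unless the counting used strand, which is not given in the sources used here. Ccdc85b was at 62.9 ± 4.83 CPM and 56.4 ± 1.697 CPM, a log2 fold change of -0.16.

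Fosl2 (FRA-2, chr5:32136472-32157839, plus strand), the other Fos protein of this kind, was at 35.9, 32.2 and 32.8 CPM in controls and 52.5, 49.1 and 47.4 CPM after IL-1β. Every IL-1β sample was higher than every control by a margin wider than the spread of either group. The mean rose from 33.7 ± 1.96 CPM to 49.7 ± 2.59 CPM (SD, n = 3), or by 47.6%, with a log2 fold change of 0.56 (95% interval 0.35 to 0.77, adjusted p = 2.7e-04 from edgeR).

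Together the 4 Fos genes went from 88.4 ± 5.98 CPM to 99.9 ± 3.17 CPM (SD, n = 3), with all IL-1β samples above the controls. Fosl2's share of the family's counts went from 38.1% ± 0.744 to 49.7% ± 1.24, and that of Fosl1 from 58.7% ± 1.24 to 47.1% ± 1.99, both without overlap. The number of Fosl2 counts per Fosl1 count was 0.645, 0.677 and 0.625 in controls and 1.13, 1.04 and 1.00 after IL-1β. Counts of the Fos family were mostly assigned to Fosl1 in controls and about evenly to Fosl1 and Fosl2 after IL-1β. Reads of Ccdc85b may be among the Fosl1 counts, so the sum, shares and ratios of this family carry that limit. They compare libraries through the 3′ end of each transcript, and no test was made on them. A rise of Fosl2 lowers the share of Fosl1, whose own level did not pass the test. Fos itself held 2.29% ± 0.531 to 2.804% ± 1.18 of the family and Fosb 0.864% ± 0.479 to 0.423% ± 0.213, both with overlapping samples.

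**Figure D2:**
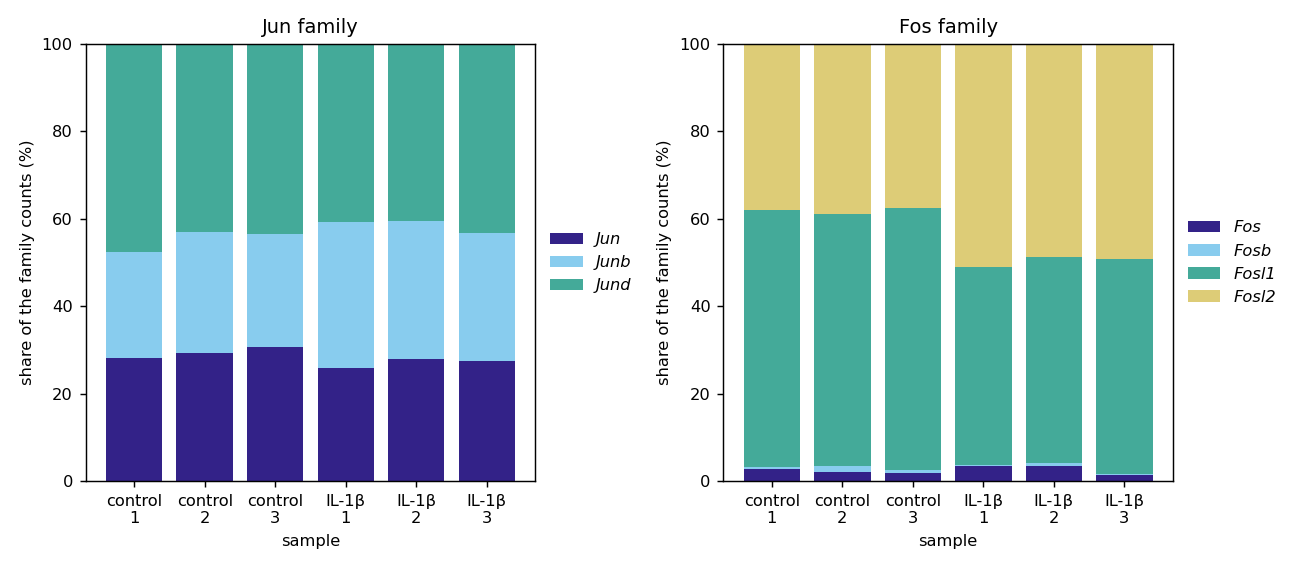
Share of the summed counts of the Jun family (left) and the Fos family (right) held by each gene, in percent, in each of the 6 samples. Junb went from 25.95% ± 1.603 to 31.4% ± 2.02 and Fosl2 from 38.1% ± 0.744 to 49.7% ± 1.24, both without overlap between control and IL-1β samples. Counts of Fosl1 may include reads of Ccdc85b, which overlaps it on the opposite strand.

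Atf3 (chr1:191170297-191183333, minus strand), a stress-induced bZIP factor that pairs with Jun proteins and represses as a homodimer, had the largest log2 fold change of the 9 tested. Control samples were at 21.04, 24.5 and 24.5 CPM, and IL-1β samples at 42.1, 39.4 and 39.3 CPM. The lowest IL-1β sample lay far above the highest control, and the spread within either group was small. The mean rose from 23.4 ± 1.999 CPM to 40.3 ± 1.597 CPM (SD, n = 3), or by 72.5%. At a log2 fold change of 0.79 (95% interval 0.55 to 1.02, adjusted p = 1.4e-05 from edgeR), Atf3 lay above 96.4% of the genes tested.

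Egr1 (chr18:34861207-34864956, plus strand), a zinc finger activator at GC-rich sites, was at 153, 151 and 149.5 CPM in controls and at 180.5, 172 and 179 CPM after IL-1β. Both groups were narrow and did not overlap. The rise of 17.1% had a log2 fold change of 0.23 (95% interval 0.087 to 0.37, adjusted p = 0.0252 from edgeR), the smallest among the 5 genes that rose. It did not pass with upper-quartile scaling (log2 fold change 0.20, adjusted p = 0.0535) or with scaling by total counts (0.17, 0.110). Nor did it pass without control sample 2, control sample 3, IL-1β sample 1 or IL-1β sample 3, with adjusted p of 0.0685, 0.0843, 0.0937 and 0.0750 from edgeR.

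The corepressors that bind EGR proteins did not pass the test, with Nab1 at 240.2 ± 9.48 CPM and 209.5 ± 13.8 CPM (adjusted p = 0.0637 from edgeR) and Nab2 at 21.6 ± 3.52 CPM and 24.5 ± 2.86 CPM (adjusted p = 0.507). Nab1 passed as lower in edgeR with upper-quartile scaling (adjusted p = 0.0291), with total-count scaling (0.0156) and with a replicate block (0.0321).

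Maff (chr15:79346621-79359076, plus strand), which pairs with NRF or BACH proteins, was at 70.2, 61.3 and 61.7 CPM in controls and 83.5, 77.04 and 80.7 CPM after IL-1β. All IL-1β samples were above the controls, of which sample 1 was the highest. The mean rose from 64.4 ± 5.02 CPM to 80.4 ± 3.23 CPM (SD, n = 3), or by 24.9%, with a log2 fold change of 0.32 (95% interval 0.14 to 0.50, adjusted p = 0.0132 from edgeR). The call was lost without control sample 2, control sample 3 or IL-1β sample 1, at adjusted p of 0.0629, 0.0621 and 0.0695.

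Across 14 alternative analyses, Atf3, Fosl2 and Junb passed in all 14, Maff in 11 and Egr1 in 8. Over these the log2 fold change of Atf3 ran from 0.72 to 0.83, that of Fosl2 from 0.51 to 0.61 and that of Junb from 0.27 to 0.42. The largest adjusted p was 3.0e-04 for Atf3, 0.00392 for Fosl2 and 0.0421 for Junb. With each sample left out in turn, Fos ran from 0.25 to 0.79 and never passed.

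**Figure D3:**
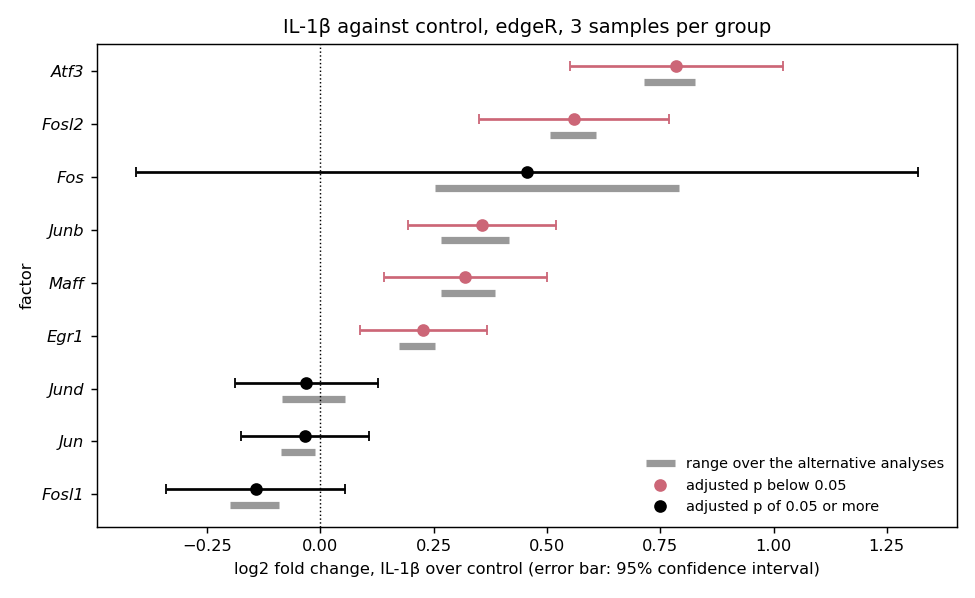
Log2 fold change of IL-1β over control for the 9 factors tested, with 95% confidence intervals from edgeR and grey bars for the range over 14 alternative analyses. Atf3 (0.79) and Fosl2 (0.56) led the genes that passed, and the interval of Fos (-0.41 to 1.32) was the widest.

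Other bZIP factors were read from a list of 22 genes, of which 18 were tested, 5 were higher and 1 lower, where 6.97% and 6.44% of all genes tested were. Their median log2 fold change was 0.14. Of the 5, Bach1, Nfe2l2 and Nfe2l1 encode partners of small MAF proteins and Mafg a small MAF protein itself. Bach1, which represses antioxidant genes as a dimer with a small MAF, rose from 74.2 ± 10.9 CPM to 130.0 ± 3.68 CPM (log2 fold change 0.81, adjusted p = 2.3e-07 from edgeR). Nfe2l2 (NRF2), which activates the same class of sites, rose from 206 ± 5.96 CPM to 285 ± 9.99 CPM (log2 fold change 0.47), and its relative Nfe2l1 from 82.5 ± 1.59 CPM to 113 ± 5.42 CPM. Among the small MAF genes, Mafg rose with a log2 fold change of 0.33 (adjusted p = 0.00485), close to that of Maff, while Mafk had 0.22 (adjusted p = 0.188) and passed only without IL-1β sample 1 (0.0428).

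Atf4, the factor of the integrated stress response, which can induce Atf3, rose from 568 ± 28.6 CPM to 717 ± 29.9 CPM (log2 fold change 0.33, adjusted p = 3.8e-04 from edgeR). Its relative Atf5, at 398 ± 68.4 CPM and 419 ± 48.1 CPM, did not pass with all samples. Without control sample 1, Atf5 had 0.21 and passed (adjusted p = 0.0477 from edgeR). Creb5, a CRE-binding factor that can pair with Jun, was the gene that fell, from 43.97, 41.9 and 52.2 CPM in controls to 29.8, 32.8 and 22.1 CPM after IL-1β (log2 fold change -0.70, adjusted p = 3.1e-04). Atf2, another ATF protein that pairs with Jun, was at 53.2 ± 8.36 CPM and 52.2 ± 7.34 CPM, with a log2 fold change of -0.029. The JUN dimerisation gene Jdp2 was at 3.01 ± 0.674 CPM and 4.34 ± 0.227 CPM (adjusted p = 0.356). Batf, Batf2, Batf3 and Mafa had too few reads to test. Jdp2, Atf2 and Mafk were picked for mention as partners after their values were seen.

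Of 28 other immediate-early genes, 24 were tested, 8 were higher and 1 lower, where 6.97% and 6.44% of all genes tested were, and the median log2 fold change was 0.21. Ier3, an early response gene linked to cell survival, rose from 263 ± 26.98 CPM to 417 ± 26.9 CPM (log2 fold change 0.67, adjusted p = 2.5e-07 from edgeR). The kinase gene Plk2 rose from 26.4 ± 1.33 CPM to 44.4 ± 3.096 CPM, and Ier5 from 93.3 ± 3.77 CPM to 129 ± 1.77 CPM. Srf, the factor that binds the CArG boxes of early genes, rose from 50.7, 41.5 and 49.6 CPM in the controls to 71.5, 78.5 and 71.6 CPM after IL-1β (log2 fold change 0.64, adjusted p = 2.0e-05).

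Klf6, a zinc finger factor and the most abundant of this list, rose from 655 ± 9.48 CPM to 845 ± 39.9 CPM (log2 fold change 0.37). Myc rose with a log2 fold change of 0.55 (adjusted p = 0.00518 from edgeR). Trib1 passed narrowly (log2 fold change 0.25, adjusted p = 0.0484) and held in 6 of 14 alternatives, with 0.15 (adjusted p = 0.223 from edgeR) without control sample 1. Cyr61 (0.43) and Ctgf (-0.37), matricellular genes named after their values were seen, passed in opposite directions, each with overlapping samples, and held in 6 and 10 of 14 alternatives. Without control sample 2, Cyr61 had 0.21 (adjusted p = 0.286 from edgeR), and without control sample 3, Ctgf had -0.24 (adjusted p = 0.224).

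Of the 15 tested genes of this list that did not pass, 5 are given here, picked after their values were seen. Ier2 was at 25.1 ± 4.25 CPM and 24.8 ± 0.973 CPM, Dusp1 at 40.1 ± 6.699 CPM and 33.1 ± 4.51 CPM, and Zfp36 at 10.6 ± 0.814 CPM and 9.43 ± 0.559 CPM. Nr4a1, an orphan nuclear receptor, was at 2.17 ± 0.786 CPM and 2.51 ± 1.54 CPM, and Egr2, a relative of Egr1, at 0.703 ± 0.546 CPM and 1.44 ± 1.38 CPM. Their adjusted p ran from 0.174 for Dusp1 to 0.967 for Ier2 in edgeR. Egr3, Egr4, Nr4a3 and Arc had too few reads to test. With IL-1β given for a single time of 24 h, an earlier rise and fall could not be seen.

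Of 32 genes of the MAP kinase cascades and the ETS, SRF and MEF2 factors upstream of AP-1 genes, 27 were tested and 4 passed, 2 higher and 2 lower, with a median log2 fold change of 0.07. This was near the 13.4% of all genes that passed, and is no result about the list. Srf, described above, was one of those higher, and Mapkapk2, a kinase activated by p38, was the other (from 107 ± 5.48 CPM to 134 ± 6.71 CPM, adjusted p = 0.0049 from edgeR). Map2k3, a kinase that activates p38, fell from 159.8 ± 10.5 CPM to 128 ± 3.55 CPM (log2 fold change -0.32, adjusted p = 0.00303). Map3k5, a stress-activated kinase further upstream, fell from 88.4 ± 5.53 CPM to 69.3 ± 3.02 CPM (log2 fold change -0.35, adjusted p = 0.00495). Map2k2, the most abundant of the list over all samples, had -0.18 (adjusted p = 0.0979) and passed as lower with upper-quartile and with total-count scaling (adjusted p = 0.0481 and 0.0266). The JNK genes Mapk8 and Mapk9 and the p38 gene Mapk14, named after their values were seen, did not pass, with adjusted p of 0.945, 0.307 and 0.651. These values are transcript levels, and kinase activity was not measured.

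A list of 30 genes with textbook AP-1 sites in their control regions moved in both directions. Of 23 tested, 13 were higher and 5 lower, with a median log2 fold change of 0.51, where 13.4% of all genes passed. In 21 of the 23, control and IL-1β samples stood apart, where 28.2% of all genes were separate. The list was chosen with earlier results of these data known, so these counts describe it and are no test of it. Cd44, a hyaluronan receptor, rose from 31.2 ± 6.96 CPM to 194 ± 15.99 CPM (log2 fold change 2.64, adjusted p = 2.9e-15 from edgeR), and the chemokine gene Ccl2 from 254 ± 25.04 CPM to 937 ± 42.2 CPM (log2 fold change 1.88). Both log2 fold changes were above the 0.79 of Atf3.

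Mt1 and Mt2, the metallothioneins of the same list, had log2 fold changes of 0.39 and 0.48 (adjusted p = 3.3e-05 and 8.7e-07 from edgeR), and Gclm, a subunit of the enzyme that makes glutathione, rose from 219 ± 16.1 CPM to 349 ± 5.72 CPM. Sqstm1 (p62) had 0.23 (adjusted p = 0.00658 from edgeR), which was lost with total-count scaling (0.0520) and without control sample 2 (0.0539).

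The 5 genes of this list that fell were Spp1, Krt18, Ccnd1, Areg and Hmox1. Spp1 (osteopontin) fell from 189.8 ± 1.95 CPM to 82.7 ± 5.17 CPM (log2 fold change -1.20), and the keratin gene Krt18 from 1822 ± 63.7 CPM to 895 ± 52.4 CPM (log2 fold change -1.02, adjusted p = 1.9e-12 from edgeR). Ccnd1 (cyclin D1), Areg (amphiregulin) and Hmox1 (heme oxygenase), named after their values were seen, had log2 fold changes of -1.10, -0.68 and -0.29. Areg and Hmox1 each passed in 11 of 14 alternatives and were both lost without control sample 1, at adjusted p of 0.0602 and 0.165 from edgeR. Many of these genes also answer to NF-κB and other factors, and nothing here separates the contribution of AP-1, which was not tested.

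**Figure D4:**
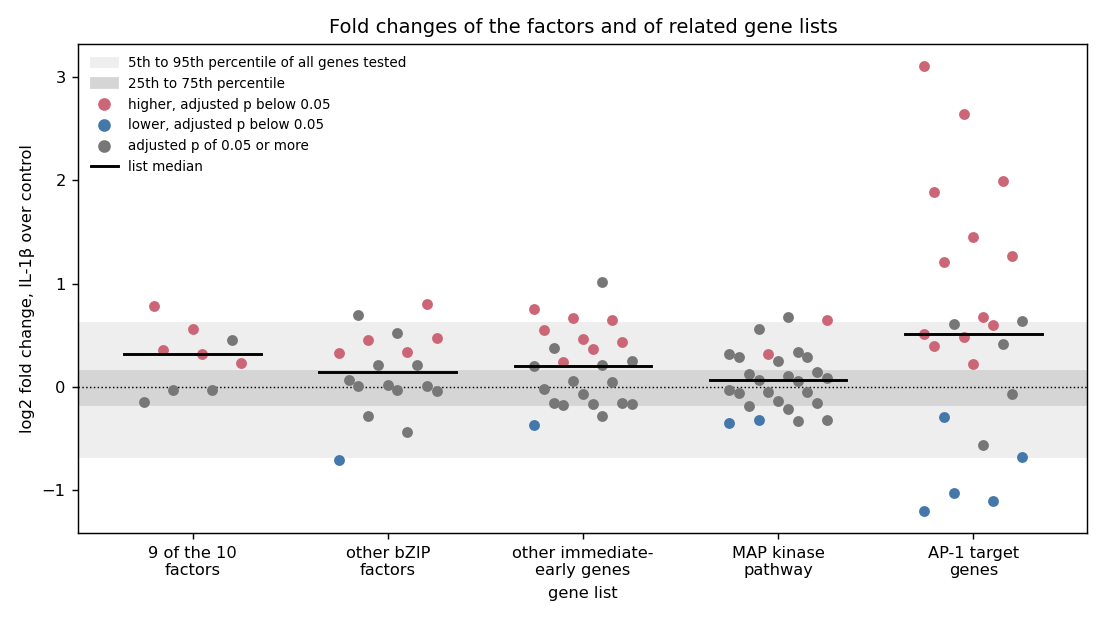
Log2 fold changes of IL-1β over control for the tested genes of the 10 factors and of 4 related lists, with a line at each list's median and grey bands for the 5th to 95th and 25th to 75th percentile of all genes tested (-0.67 to 0.62 and -0.17 to 0.16). Medians were 0.32 for the factors, 0.14 for other bZIP factors, 0.21 for other immediate-early genes and 0.07 for the MAP kinase list. The median was 0.51 for genes with textbook AP-1 sites, which the axis names AP-1 target genes, though control by AP-1 was not tested. All lists were chosen with earlier results of these data known.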

How the data were processed

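QuantSeq 3′ mRNA-Seq libraries of 3 control and 3 IL-1β hepatocyte samples were sequenced with single-end reads of 75 nt. The authors aligned reads with Bowtie2, their processing notes name mm10 (GRCm38), and they deposited unnormalized read counts per gene. The counting tool and its treatment of strand and of reads matching several genes are not given in the sources used here. Other deposited columns (log2 normalized values, group averages, fold changes and p-values) were not used.

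Counts were filtered (filterByExpr), TMM-scaled and tested with edgeR 4.0.16 in R 4.3.3, fitted over the whole table and checked on simulated data. Alternatives were DESeq2 1.42.0, limma 3.58.1 on log2(CPM + 1) and log2(CPM + 0.1), scaling by upper quartiles or by total counts, every gene kept or a minimum of 10 counts per sample, a replicate block, leaving out each sample, an adjusted p below 0.01 and a fold over 1.5. Samples were grouped by their labels. The 10 genes and all lists were chosen with earlier results of these data known. Named were the 10 genes, from each related list the 6 smallest adjusted p below 0.05 and the 3 highest mean levels, and from each marker list the 4 highest levels, with later picks stated. Some genes this rule selects are not reported here. Protein sequences were not analysed here. Of the 75-nt stretches in the last 500 nt of the members' transcripts, 0 occurred in the same sense in another gene's transcripts. The opposite sense was not compared, so the overlap of Fosl1 with Ccdc85b is outside this count.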

Additional observations from a re-analysis of the deposited data

How the results depend on the processing

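The number of the 10 genes called higher was 5 with DESeq2, with limma at both pseudocounts and with both other filters, and 4 with upper-quartile and with total-count scaling, where Egr1 was lost. It was 3 at an adjusted p below 0.01 and 1 when a fold over 1.5 was required too. With a sample left out it ran from 3 to 5, with 3 without control sample 2, control sample 3 or IL-1β sample 1. Over all genes, 1563 calls became 996 at the stricter threshold and 769 with the fold. With the fold, calls were 2 among other bZIP factors, 3 among other immediate-early genes and 1 in the MAP kinase list. The replicate numbers did not pair the samples (correlations of deviations 0.075, 0.027 and -0.005), and the fit with the replicate block called 5 of the 10 genes higher and 1671 of all genes. Across all genes the median log2 fold change was -0.055 with total-count scaling and -0.03 with upper-quartile scaling, and 39.6% and 45.3% of calls were then higher, beside 52.0%. With a sample left out, log2 fold changes that had not passed changed sign, Jund from -0.079 to 0.055, Atf5 from -0.034 to 0.21, Atf2 from -0.15 to 0.076, Ier2 from -0.14 to 0.097, Nr4a1 from -0.11 to 0.65, Egr2 (1.01 with all samples) from -0.098 to 1.57, Mapk8 from -0.15 to 0.16 and Mapk14 from -0.044 to 0.19. Among the single values under the alternatives, 796 kept direction and side of the threshold, 41 lost a call, 12 gained one and 16 changed sign, and the cause was not tested. Fosb had too few reads for a test, and Fos had only 15 to 37 reads per sample.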
